A study of Mus musculus with 8 samples.

Results

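Nucleoporins and nuclear transport genes were followed across cells carrying NUP98-HOXA9 or its deletion mutants, as 40 gene symbols listed by name. A gene was measured where the platform annotation gave a probe set this symbol alone, and of several such probe sets the brightest by its average over the 8 arrays stood for the gene. By this rule 38 of the 40 genes were measured, among 19938 gene symbols and 21789 probe sets tested in all; Nup35, of the inner ring, and Tpr, of the nuclear basket, were not analysed here. The samples were total RNA from cells of mice (strain C57BL/6), read on Affymetrix arrays, with 2 arrays in each of 4 groups. The cells of the groups carried an empty vector, full-length NUP98-HOXA9, NUP98-HOXA9 delFG1 or NUP98-HOXA9 delFG2. NUP98-HOXA9 is a leukaemia fusion of the phenylalanine-glycine (FG) repeat part of the nucleoporin NUP98 with the homeodomain part of HOXA9, and the study asked which genes depend on its NUP98 part. The cell type, the vector and its promoter, whether cells are clonal or pooled, and the residues that each deletion removes are not stated by the labels, so no cell type could be checked against markers. Within a group the arrays carry the numbers 1 and 2, and nothing says that they came from separate cultures, so the p-values here take only the array-to-array spread, possibly technical, as error.

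The nuclear pore complex is a channel through the nuclear envelope built of many copies of a set of proteins, the nucleoporins. Its scaffold is made of the Y complex on both faces and an inner ring between them, held in the membrane by a ring of transmembrane proteins, and its channel is filled by nucleoporins with FG repeats. Transport receptors bind the FG repeats and carry cargo through; importins release cargo, and exportins bind it, when the GTPase Ran is in its GTP form inside the nucleus. NUP98 is a mobile FG nucleoporin that holds the RNA export factor RAE1, and in leukaemia its FG part is fused to transcription factors and chromatin proteins; the exportin XPO1 (CRM1) is known to bind such fusions.

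All values are log2(intensity + 1), called log2 intensity here, and all differences are between group means on this scale. Median intensity was 80.7 to 83.2 on the 8 arrays, and arrays of a group correlated with r between 0.995 and 0.996. Members had mean log2 intensities of 8.99 to 12.21, against a median of 6.73 for all tested probe sets, and levels of different probe sets are not compared. Differences were tested with limma over all 21789 probe sets with Benjamini-Hochberg adjustment and a threshold of 0.05, in a fit without and a fit with the array number as a replicate block. Arrays with the same number deviated together in all 6 pairs of groups (r between 0.401 and 0.64 across probe sets, and between 0.273 and 0.855 across the 38 members), so both fits are given.

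The range of the 4 group means of a member was 0.02 to 0.42, with a median of 0.16, and the same median over all tested probe sets was 0.14. The moderated F test over the 4 groups called 0 of 38 members by limma without the block (0.0964% of all probe sets) and 0 with it (4.52%); at an unadjusted p under 0.05 there was 1 member without the block (5.99% of all) and 8 with it (15.3%). The highest mean was in full-length NUP98-HOXA9 for 19 members, in delFG1 for 17 and in the empty vector for 2. The lowest was in the empty vector for 19, in delFG2 for 17, and in the full-length fusion and delFG1 for 1 each. The same counts over all probe sets were not taken, so these counts have no share to be set against. The map of the members over the arrays shows that the arrays numbered 2 were lower than those numbered 1 in many rows, which is measured further on.

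**Figure D1:**
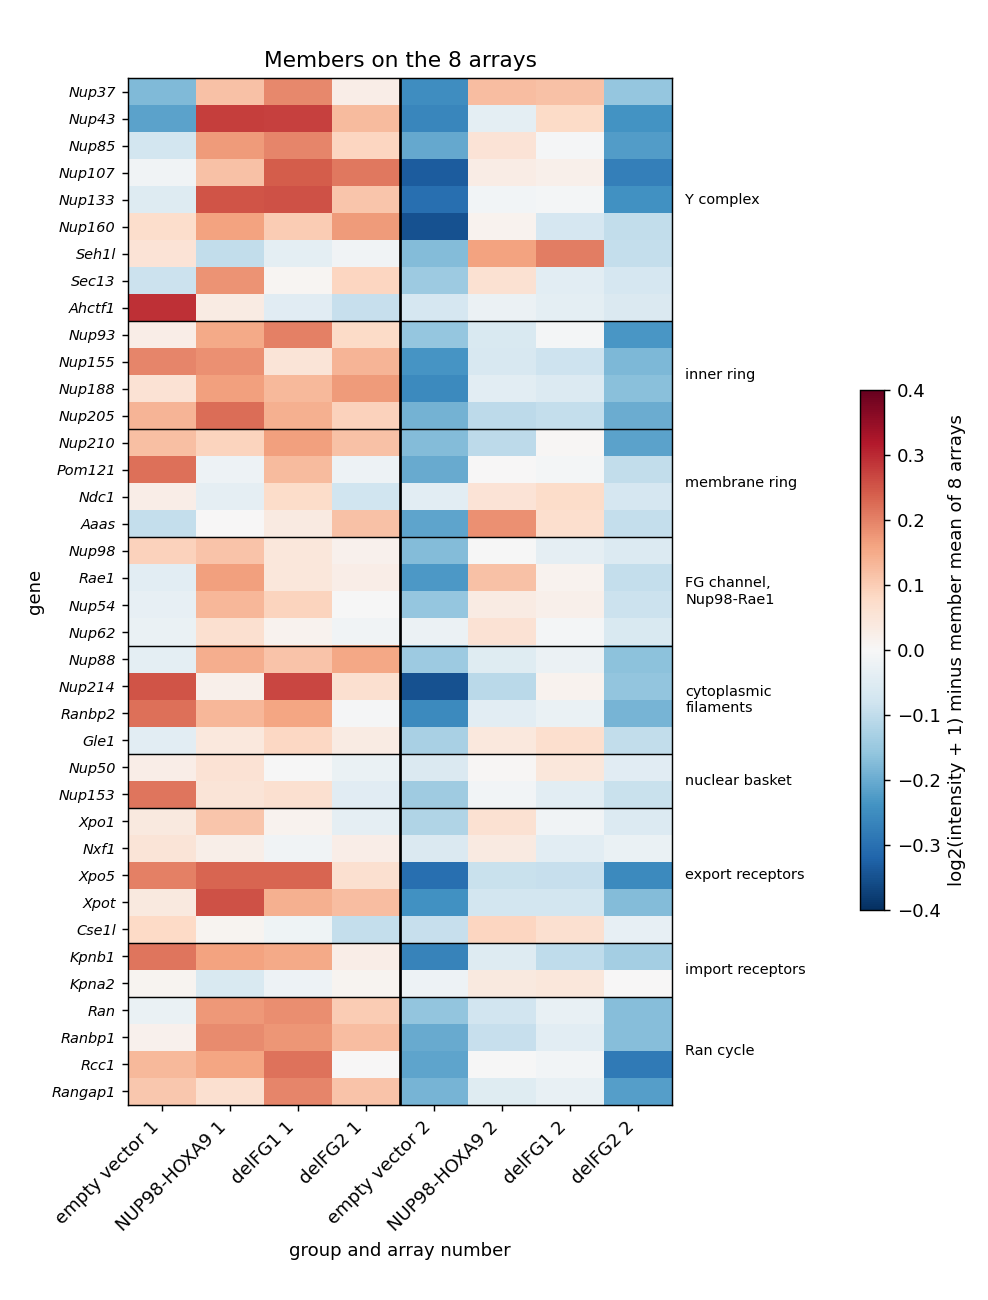
Log2 intensity of each measured member (rows, grouped by role) on each array (columns, named by group and array number), as the difference from the member's mean over the 8 arrays. The empty vector array numbered 2 is below the member's mean in all 38 rows, and the full-length array numbered 1 is above it in 34.

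Nup98 itself, the gene whose human counterpart gives the fusion its FG part, passed no test between groups in either fit. Its log2 intensities were 11.09 and 10.82 with the empty vector, 11.11 and 10.99 with the full-length fusion, 11.04 and 10.96 with delFG1 and 11.01 and 10.94 with delFG2, each for the arrays numbered 1 and 2. The empty vector arrays enclosed those of both mutants, and every pair of groups overlapped. The difference between full-length fusion and empty vector was 0.10 (95% interval -0.14 to 0.34; limma adjusted p = 0.847, and 0.525 with the block). It was 0.02 within array number 1 and 0.17 within number 2. Whether this probe set also reads the introduced fusion is not known.

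Rae1, whose product binds NUP98 and messenger RNA, was highest with the full-length fusion on both arrays. It stood at 9.94 and 9.75 with the empty vector, 10.14 and 10.09 with the full-length fusion, 10.02 and 9.99 with delFG1 and 10.003 and 9.88 with delFG2. Both full-length arrays lay above all 6 others. The difference from the empty vector was 0.27 (SE 0.10) and did not pass in either fit (limma adjusted p = 0.432, and 0.0542 with the block); a second, weaker probe set of the gene gave 0.27 as well. Against the full-length fusion Rae1 was at -0.11 with delFG1 and -0.17 with delFG2, neither of which passed (adjusted p of 1 and 1, and 1 and 0.549 with the block). The second probe set gave -0.038 and -0.157 there. With the block, the difference from the empty vector passed under 3 alternatives by limma: quantile normalisation (adjusted p = 0.0312), a filter on low values (0.0386) and without the empty vector array numbered 1 (0.0358).

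Of the other FG nucleoporins of the channel, Nup54 and Nup62, partners in the central channel complex, had full-length arrays above the empty vector arrays too. Nup54 was at 9.81 and 9.69 with the empty vector and at 9.98 and 9.88 with the full-length fusion, a difference of 0.18. For Nup62 the difference was 0.09. Neither passed in either fit.

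**Figure D2:**
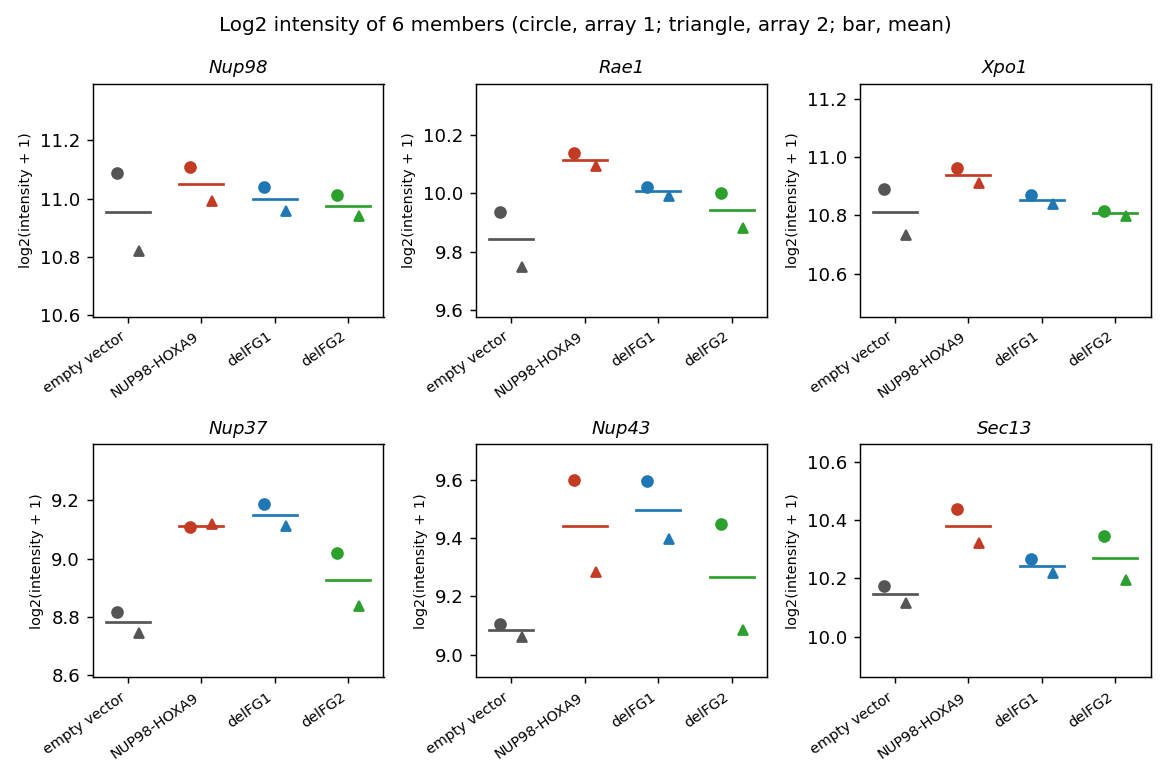
Log2 intensity (vertical axis, spanning 0.8 in each panel) of 6 members in the 4 groups; circles are arrays numbered 1, triangles arrays numbered 2 and bars the mean of 2. Nup37 and Nup43 are the members that passed with the replicate block, Rae1 is highest on both full-length arrays, and the groups overlap for Nup98.

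In the 2 fits described above, both members that passed a test between groups were Y complex genes, and they passed only with the replicate block. Under alternative settings with the block and all 8 arrays, Rae1, Nup133 and Sec13 passed against the empty vector as well. Nup37, a subunit of the Y complex that docks on NUP160, stood at 8.82 and 8.74 with the empty vector, 9.11 and 9.12 with the full-length fusion, 9.19 and 9.11 with delFG1 and 9.02 and 8.84 with delFG2. All 6 fusion arrays lay above both empty vector arrays, and delFG2 lay between the empty vector and the other fusion groups. Nup37 was higher with the full-length fusion by 0.33 (SE 0.11, a 1.26-fold ratio; limma adjusted p = 0.368, and 0.0442 with the block), by 0.29 within array number 1 and 0.37 within number 2. With delFG1 it was higher than with the empty vector by 0.37 (adjusted p = 0.295, and 0.0287 with the block), and with delFG2 by 0.15 (1, and 0.607 with the block).

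Nup43, a beta-propeller subunit of the Y complex, had the largest differences from the empty vector of all 38 members with the full-length fusion and with delFG1. It stood at 9.11 and 9.06 with the empty vector, 9.60 and 9.28 with the full-length fusion, 9.60 and 9.40 with delFG1 and 9.45 and 9.08 with delFG2. The full-length and delFG1 arrays lay above the empty vector arrays, and the delFG2 array numbered 2 lay between the empty vector arrays. The difference from the empty vector was 0.36 with the full-length fusion (SE 0.16; limma adjusted p = 0.519, and 0.0459 with the block) and 0.41 with delFG1 (0.444, and 0.0244 with the block). With delFG2 it was 0.18, which did not pass.

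In the comparison of full-length fusion and empty vector, 0 of 38 members passed without the block (0.124% of all probe sets did) and 5 had an unadjusted p under 0.05 (9.54% of all). With the block Nup37 and Nup43 rose, 2 of 38 or 5.26%, against 2.18% of all probe sets that rose in that fit (4.43% fell and 6.61% were called in all), and 0 members fell. Between delFG1 and the empty vector the counts were 0 (0.129%) without the block, with 2 at an unadjusted p under 0.05 (9.61%), and the same 2 genes rose with it (1.94% of all rose, 4.18% fell and 6.12% were called in all). Both comparisons share the empty vector arrays. With the block and arrays centred on their medians, neither gene passed for the full-length fusion, while both passed for delFG1, with adjusted p of 0.0431 for Nup37 and 0.0299 for Nup43. The shares of all probe sets called with this centring, or when arrays were left out, were not counted. Leaving out arrays in the fit with the block gave 0 members (without either full-length array or either delFG1 array) to 2 for the full-length fusion, and 0 (without either full-length array or either delFG1 array) to 4 (without the empty vector array numbered 2) for delFG1. Without the empty vector array numbered 1, Nup37 and Nup43 passed in neither comparison, and Rae1 and Nup160 (full-length fusion) and Nup214 (delFG1) did, all higher. Without the one numbered 2, Nup43 rose and Ahctf1 fell in both comparisons, and Nup37 and Ran rose with delFG1.

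Of the Y complex as a whole, between full-length fusion and empty vector 8 of 9 differences were above 0 (56.6% of all probe sets were), with a median of 0.25 against 0.02 for all, and 6 had full-length arrays above both empty vector arrays (23.4% of all did). Nup133, a membrane-curvature sensing subunit, differed by 0.30 (adjusted p = 0.639, and 0.0539 with the block), Nup85 by 0.25, Nup107 by 0.25, Sec13, shared with the COPII coat, by 0.24 (0.485, and 0.0728 with the block) and Nup160 by 0.23. With the block, Nup133 passed by limma under quantile normalisation (adjusted p = 0.0338), without the intensity trend (0.0465) and with a filter on low values (0.039). It also passed under these settings for delFG1 minus empty vector. Sec13 passed with the block under quantile normalisation (limma adjusted p = 0.0428). Sec13 was at 10.18 and 10.12 with the empty vector and at 10.44 and 10.32 with the full-length fusion. Seh1l differed by 0.09 with overlapping arrays, by -0.151 within array number 1 and 0.335 within number 2. Ahctf1 (ELYS), which brings the Y complex to chromatin after mitosis, was the only one below 0, at -0.11. Its empty vector arrays read 11.21 and 10.84, while all fusion arrays lay between 10.82 and 10.95. The empty vector array numbered 1 alone was high for Ahctf1: the difference was -0.26 within array number 1 and 0.05 within number 2.

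Proximal promoters are given for 5 members. That of Nup37 is shown because the gene passed a test between groups, that of Nup98 because it is the gene of the fusion's FG part, and those of Ranbp1, Nup205 and Xpo5 because these members had the smallest p between the array numbers. Each is the RefSeq promoter of build GRCm38.p6, from 250 bases before to 50 after the first listed start, 5′ to 3′ on the gene's strand. Capitals mark matches on either strand to 6 motifs: GGGCGG (SP factors), CGGAAG (ETS factors), CCAAT (NF-Y), CACGTG (E-box), GCATGCG (part of the NRF1 motif) and GATGGCG (part of the YY1 motif).
Nup37: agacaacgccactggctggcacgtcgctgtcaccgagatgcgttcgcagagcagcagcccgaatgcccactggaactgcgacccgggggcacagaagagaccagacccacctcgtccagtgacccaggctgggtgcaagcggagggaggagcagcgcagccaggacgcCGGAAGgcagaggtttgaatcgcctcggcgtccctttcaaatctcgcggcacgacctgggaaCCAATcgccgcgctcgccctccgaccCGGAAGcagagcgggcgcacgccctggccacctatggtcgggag
Nup98: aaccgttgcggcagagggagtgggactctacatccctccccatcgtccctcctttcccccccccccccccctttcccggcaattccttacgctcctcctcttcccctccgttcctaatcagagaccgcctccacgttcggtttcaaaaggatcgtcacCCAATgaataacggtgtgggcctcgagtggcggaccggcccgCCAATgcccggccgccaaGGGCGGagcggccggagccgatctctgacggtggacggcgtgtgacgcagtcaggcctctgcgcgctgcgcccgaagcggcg
Ranbp1: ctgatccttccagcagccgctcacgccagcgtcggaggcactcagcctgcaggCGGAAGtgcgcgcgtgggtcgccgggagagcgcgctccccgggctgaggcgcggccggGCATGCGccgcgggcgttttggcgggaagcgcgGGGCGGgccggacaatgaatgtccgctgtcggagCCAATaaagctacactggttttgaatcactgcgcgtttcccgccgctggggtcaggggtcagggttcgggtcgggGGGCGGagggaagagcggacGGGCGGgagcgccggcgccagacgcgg
Nup205: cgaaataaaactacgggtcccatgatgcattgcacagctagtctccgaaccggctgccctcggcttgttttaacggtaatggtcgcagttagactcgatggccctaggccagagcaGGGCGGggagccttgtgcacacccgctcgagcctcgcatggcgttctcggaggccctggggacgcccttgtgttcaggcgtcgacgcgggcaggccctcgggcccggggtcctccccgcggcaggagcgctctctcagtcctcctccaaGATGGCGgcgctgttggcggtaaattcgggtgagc
Xpo5: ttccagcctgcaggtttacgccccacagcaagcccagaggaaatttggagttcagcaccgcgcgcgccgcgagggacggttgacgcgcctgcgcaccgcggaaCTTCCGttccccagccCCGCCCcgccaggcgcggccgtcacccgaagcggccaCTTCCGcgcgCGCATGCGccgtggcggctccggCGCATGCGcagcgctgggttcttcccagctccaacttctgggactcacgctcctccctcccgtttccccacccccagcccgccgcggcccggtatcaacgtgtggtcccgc
The Nup37 promoter, at chr10:88146742-88147041 on the plus strand, held 2 CGGAAG and 1 CCAAT match, and that of Nup98, at chr7:102210117-102210416 on the minus strand, 1 GGGCGG and 2 CCAAT matches. Ranbp1, at chr16:18248645-18248944 on the minus strand, had 3 GGGCGG, 1 CGGAAG, 1 CCAAT and 1 GCATGCG match, Nup205, at chr6:35177366-35177665 on the plus strand, 1 GGGCGG and 1 GATGGCG match, and Xpo5, at chr17:46202561-46202860 on the plus strand, 1 GGGCGG, 2 CGGAAG and 4 GCATGCG matches, counted on both strands. In Xpo5 the 4 GCATGCG matches lie in 2 stretches of CGCATGCG, each of which matches on both strands. Of the 38 measured members 34 had a promoter entry, all but Cse1l, Nup43, Nup85 and Seh1l. Of these 34, GGGCGG was in 26 (76.5%, against 35.9% of 27025 genes), CGGAAG in 15 (44.1% against 17.2%) and CCAAT in 12 (35.3% against 37.9%). CACGTG was in 6 (17.6% against 7.2%), GCATGCG in 7 (20.6% against 3.6%) and GATGGCG in 7 (20.6% against 3.7%). These shares describe letters in the windows, and the motifs may overlap each other. The 27025 genes were not matched to the members by level or base composition. The 5 promoters given were 64.3% to 72.0% G or C.

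**Figure D3:**
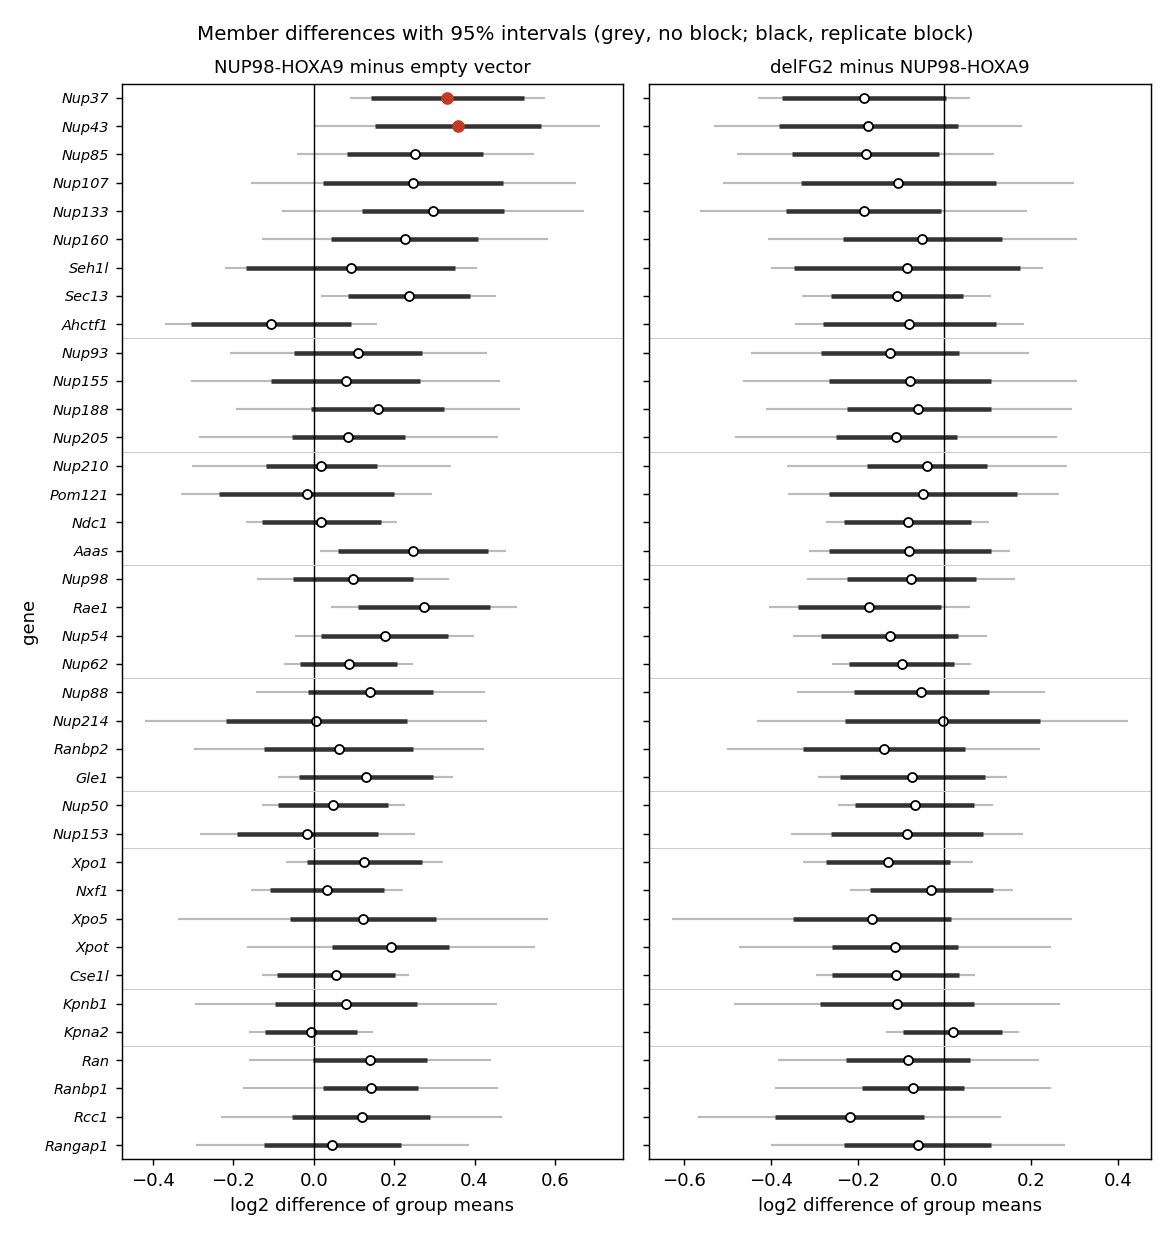
Difference of group means on the log2 scale for each member, with 95% intervals (grey without and black with the replicate block), for full-length fusion minus empty vector (left) and delFG2 minus full-length fusion (right). Filled points are the members that passed with the block, Nup37 and Nup43, and 37 of 38 points on the right lie below 0.

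The inner ring, membrane ring, cytoplasmic filaments and nuclear basket held 14 measured members. For full-length fusion minus empty vector, medians were 0.10 for the 4 inner ring genes (Nup93, Nup155, Nup188 and Nup205), 0.02 for the 4 membrane ring genes (Ndc1, Pom121, Nup210 and Aaas), 0.10 for the 4 filament genes (Nup214, Nup88, Ranbp2 and Gle1) and 0.02 for the basket genes Nup153 and Nup50, and 0 of these 14 genes passed in either fit. Aaas, whose product ALADIN is anchored in the membrane by NDC1, had the largest difference, 0.25 (adjusted p = 0.488, and 0.127 with the block). It was at 11.19 and 11.08 with the empty vector and at 11.29 and 11.47 with the full-length fusion, so the full-length arrays were the higher ones.

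For Nup214, a filament FG nucleoporin that is itself a leukaemia fusion partner, the 2 array numbers gave opposite signs. It read 10.47 and 9.87 with the empty vector and 10.24 and 10.11 with the full-length fusion. The empty vector arrays enclosed both full-length arrays, with differences of -0.23 in number 1 and 0.24 in number 2. Pom121 (-0.24 and 0.20) and Nup153 (-0.16 and 0.13) showed the same split.

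Among transport receptors, the exportin gene Xpo1 was at 10.89 and 10.73 with the empty vector, 10.96 and 10.91 with the full-length fusion, 10.87 and 10.84 with delFG1 and 10.81 and 10.80 with delFG2. Its full-length arrays lay above the other 6, by little. The difference from the empty vector was 0.13 (95% interval -0.07 to 0.32; adjusted p = 0.719, and 0.344 with the block), and that of delFG2 from the full-length fusion was -0.13 (1, and 0.646 with the block). The transfer RNA exportin gene Xpot differed from the empty vector by 0.19, the microRNA precursor exportin gene Xpo5 by 0.12, Cse1l, which returns importin alpha to the cytoplasm, by 0.06, and the messenger RNA export receptor gene Nxf1 by 0.03, none of which passed. The import receptor genes Kpnb1 (importin beta) and Kpna2 (an importin alpha) were at 0.08 and -0.01, and the other 2 probe sets named Kpna2 gave -0.03 and -0.01. In the Ran cycle, Ran differed by 0.14, its binding protein gene Ranbp1 by 0.14, the nucleotide exchange factor gene Rcc1 by 0.12 and the GTPase activator gene Rangap1 by 0.05. The 11 genes of these 3 groups were not called in either fit.

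With the full-length fusion, the median member difference was 0.11, against 0.02 for all tested probe sets, and 34 of 38 differences were above 0 (89.5%, against 56.6% of all probe sets). The median was 0.08 within array number 1 and 0.18 within number 2, and 24 members were above 0 in both (63.2% against 33.7%). Full-length arrays lay above both empty vector arrays for 12 members (31.6% against 23.4%), and below for 0 (15.6% of all). Between arrays of a group the median deviation of the members varied with a pooled SD of 0.12, and of 0.03 with the array number taken out. The median difference was 0.24 without the empty vector array numbered 1 and 0.005 without the one numbered 2, each of which leaves the array numbers unbalanced between the groups. No 95% interval of a member reached beyond 0.71 upward or -0.42 downward in this comparison.

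Neutrophil, monocyte and mast cell markers were on balance lower with the full-length fusion. The summed intensity of 12 neutrophil genes was 66030 and 72980 with the empty vector, 56960 and 66060 with the full-length fusion, 56890 and 66170 with delFG1, and 65640 and 71360 with delFG2. That of 9 monocyte genes was 20500 and 25290 with the empty vector, 16280 and 18610 with the full-length fusion, 15370 and 18180 with delFG1, and 17460 and 21390 with delFG2. That of 9 mast cell genes was 13570 and 15050, 11420 and 13480, 9345 and 11540, and 12500 and 14830 in the same order. In each list the full-length and delFG1 arrays lay below the empty vector array of the same number. With the block, 1 neutrophil gene rose and 6 fell between empty vector and full-length fusion, as 1 and 6 of 9 monocyte genes and 1 and 5 of 9 mast cell genes did, with medians of -0.27, -0.49 and -0.465. Of all probe sets 2.18% rose and 4.43% fell in that fit, and 0 of these markers passed without the block. Differences ran from -1.09 to 0.24 for neutrophil, -1.15 to 1.36 for monocyte and -1.31 to 0.48 for mast cell genes. The largest monocyte change was thus a rise. For delFG2 minus full-length fusion the medians were 0.19, 0.08 and 0.23. The 7 stroma and endothelium genes had sums of 1269 to 1510 over all arrays; for full-length fusion minus empty vector their median was 0.07 and their highest difference 0.46, and with the block 1 of them rose and 0 fell. The part of these cell type markers in the member differences was not tested, and in bulk RNA fewer cells of a type and less RNA per cell cannot be told apart.

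No member passed between delFG1 and the full-length fusion. The median difference of delFG1 from the full-length fusion was -0.006 (0.002 over all probe sets), with 17 members above 0 (50.8% of all probe sets were) and 21 below, and limma called 0 members without the block (0.00918% of all probe sets) and 0 with it (0.078%), with 0 members and 2.07% of all at an unadjusted p under 0.05. Sec13 (-0.14), Rae1 (-0.11) and Nup214 (0.18) had the smallest unadjusted p. The 2 delFG1 arrays of Sec13, at 10.27 and 10.22, lay below both full-length arrays, and those of Nup214, at 10.49 and 10.24, overlapped them. The 95% intervals of the members ran from -0.46 to 0.61 at most, which is the range of differences these arrays leave possible. The delFG1 arrays lay above both full-length arrays for 2 members (13.3% of all), Ndc1 and Gle1, and below for 6 (12.4%). The median was -0.072 without the full-length array numbered 2 and 0.064 without the delFG1 array numbered 2, each leaving the array numbers unbalanced. Within array numbers 1 and 2 it was -0.001 and -0.007.

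Between delFG2 and the full-length fusion 37 of 38 differences were below 0 (97.4%), and 1 was above, Kpna2 at 0.02 (47.7% of all probe sets were above 0), with a median of -0.09 against -0.005 for all probe sets. Below 0 in both array numbers were 27 members (71.1% against 26% of all), and delFG2 arrays lay below both full-length arrays for 12 (31.6% against 14.1%). Limma called 0 members without the block (0.0275% of all) and 0 with it (0.468%), with 0 members and 2.76% of all at an unadjusted p under 0.05. The largest difference was that of Rcc1, whose product loads Ran with GTP on chromatin, at -0.22. Its arrays read 9.89 and 9.73 with the full-length fusion and 9.73 and 9.45 with delFG2. The groups overlapped by little, and the adjusted p was 1, and 0.417 with the block. Nup37 (-0.19), Rae1 (-0.17) and Xpo1 (-0.13) had the smallest unadjusted p. The median was -0.20 without the delFG2 array numbered 1 and -0.009 without the one numbered 2, and -0.08 and -0.12 within array numbers 1 and 2.

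Against the empty vector, with delFG1 35 members were above 0 (92.1% against 57.8% of all), with a median of 0.13 against 0.02. In both array numbers 25 were above 0 (65.8% against 37.2%), and the arrays did not overlap for 13 higher members (34.2% against 24.6%). That median was 0.26 without the empty vector array numbered 1 and -0.004 without the one numbered 2. Each of these leaves the array numbers unbalanced between the groups. Within array numbers 1 and 2 the median for delFG1 was 0.047 and 0.168. With delFG2 21 members were above 0 (53.5% of all were) and 17 below, with a median of 0.004 against 0.008. Of the 9 Y complex genes 8 were above 0 with delFG1 and 8 with delFG2, with medians of 0.236 and 0.125. Limma called 0 members between delFG2 and the empty vector without the block (0.00459%) and 0 with it (0.505%), with 0 members and 4.43% of all at an unadjusted p under 0.05. Aaas (0.17), Ahctf1 (-0.19) and Nup37 (0.15) had the smallest unadjusted p. Among the members only Aaas, Nup37 and Sec13 had both delFG2 arrays above both empty vector arrays (16.3% of all probe sets did), and only Ndc1 had them below (13%). The median was -0.071 without the delFG2 array numbered 1 and 0.139 without the empty vector array numbered 1, which again leaves the numbers unbalanced. Within array numbers 1 and 2 it was 0.002 and 0.056. Without the empty vector array numbered 2, Ahctf1 and Nup153 fell in the fit with the block.

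In the direct comparison of the mutants, delFG2 was below delFG1 for 35 of 38 members (92.1%) and above it for 3 (45.9% of all were above), with a median of -0.09 against -0.009 for all probe sets. In both array numbers 29 members were lower (76.3% against 29.9% of all), and for 11 the arrays did not overlap (28.9% against 15.3%). Limma called 0 members without the block (0% of all) and 0 with it (0.537%), with 0 members and 3.13% of all at an unadjusted p under 0.05. Rcc1 had the largest difference, -0.24, followed by Nup43 and Nup37. Nup37 (-0.22), Ndc1 (-0.15) and Rcc1 had the smallest unadjusted p. Ndc1, a transmembrane nucleoporin that anchors the pore, was at 10.72 and 10.73 with delFG1 and at 10.57 and 10.58 with delFG2, 4 arrays without overlap, and its adjusted p was 1 (0.617 with the block). The median was -0.18 without the delFG2 array numbered 1 and -0.008 without the one numbered 2, each leaving the array numbers unbalanced. Within array numbers 1 and 2 it was -0.052 and -0.12.

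More members passed between the array numbers than between any groups. The numbers recur in every group and their meaning is not stated. The numbers set 4 arrays against 4 and the groups 2 against 2, so the standard errors differ. With the block that of Ranbp1 was 0.038 for the number and 0.054 for a group difference. In the fit with the block, 20 of 38 members (52.6%) were lower in the arrays numbered 2 and 0 higher, against 4.75% of all probe sets lower and 6.43% higher. The median member difference was -0.19, against 0.01 for all probe sets, and the called members lay between -0.37 and -0.19. In all 4 groups 26 members were lower on array 2 (68.4% against 13.4% of all), and for 16 members all 4 arrays numbered 2 lay below all 4 numbered 1 (42.1% against 5.15%). The count was 20 without either empty vector array, 9 or 10 without a full-length array, 8 without a delFG1 array and 7 without a delFG2 array.

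**Figure D4:**
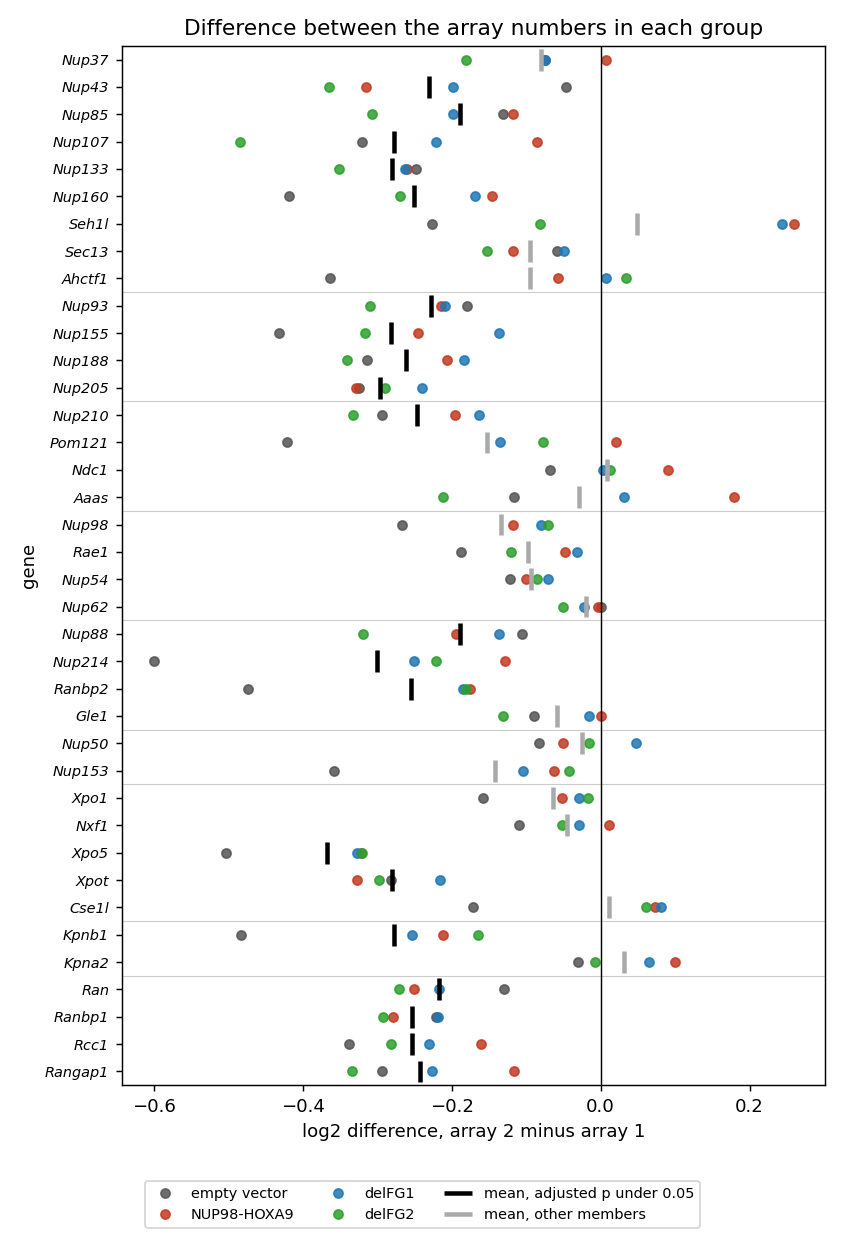
Difference between array 2 and array 1 on the log2 scale for each member (rows) in each of the 4 groups (coloured points), with the mean of the groups as a bar, black where the adjusted p was under 0.05. The 4 inner ring and 4 Ran cycle genes are below 0 in every group.

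By role, all 4 inner ring genes and all 4 Ran cycle genes were called lower, with medians of -0.27 and -0.25, and 5 of 9 Y complex genes (Nup107, Nup133, Nup160, Nup43 and Nup85) and 3 of 4 filament genes (Nup214, Ranbp2 and Nup88). Of the receptors Xpo5, Xpot and Kpnb1 were lower, and of the membrane ring Nup210. In the FG channel and Nup98-Rae1 group 0 of 4 passed, with Nup98 at -0.13 (adjusted p = 0.106), and in the basket 0 of 2. Ranbp1 had the smallest p. It was at 11.68, 11.85, 11.84 and 11.79 on the arrays numbered 1 of empty vector, full-length fusion, delFG1 and delFG2, and at 11.46, 11.57, 11.62 and 11.49 on those numbered 2, a difference of -0.25 (SE 0.04; adjusted p = 0.00211). No array numbered 2 reached the lowest array numbered 1. Nup205, a large scaffold protein of the inner ring, was at 10.85, 10.94, 10.86 and 10.81 on the arrays numbered 1 and at 10.53, 10.61, 10.62 and 10.52 on those numbered 2, a difference of -0.30 (adjusted p = 0.00216). Xpo5 read 9.69, 9.72, 9.72 and 9.56 and then 9.19, 9.40, 9.40 and 9.24, a difference of -0.37 (adjusted p = 0.00273). For these 3 genes the spread between the groups within a number was smaller than the gap between the numbers. They were picked by the smallest p between the numbers, a choice that favours such genes.

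The size of the gap varied by group. The median member gap was -0.22 with the empty vector, -0.12 with the full-length fusion, -0.14 with delFG1 and -0.20 with delFG2, and it was largest in the empty vector for 17 members and in delFG2 for 16. A difference of the gap between groups could not be tested with 1 array a cell. Cell type markers also differed with the number: 8 of 12 neutrophil genes were higher in the arrays numbered 2 and 1 lower, 5 of 9 monocyte genes were higher, and 5 of 9 mast cell genes were higher and 1 lower (6.43% of all probe sets were higher and 4.75% lower). The part of these markers in the members' gap was not tested.

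Of 46 further names of nuclear transport (importins, exportins, messenger RNA export and SUMO protease genes, with 2 genes under both an older and a newer name), 42 were measured, and 0 passed in any of the 6 comparisons in either fit. For full-length fusion minus empty vector 2 of these 42 had an unadjusted p under 0.05 by limma, against 9.54% of all probe sets. Their medians were 0.05 for full-length fusion minus empty vector, -0.01 for delFG1 and -0.05 for delFG2 minus full-length fusion. The NXF1 cofactor gene Nxt1 (0.30, adjusted p = 0.449, and 0.108 with the block), the export adaptor gene Alyref2 (0.37) and Nxt2 (-0.33) had the smallest unadjusted p. With the array number 6 of 42 were lower and 0 higher (4.75% and 6.43% of all probe sets), with a median of -0.06.

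Ribosome biogenesis genes were listed as other genes of growing cells. Of 24 measured, 0 passed without the block and 2 rose with it between full-length fusion and empty vector, Nop56 (0.31, limma adjusted p with the block = 0.0178), a core protein of small nucleolar particles, and Wdr12 (0.42, 0.0159), which acts in large subunit maturation. Between delFG1 and the empty vector Gar1 (0.40, 0.0233) and Wdr12 (0.35, 0.0403) rose with the block. Of all probe sets 2.18% rose with the block for the full-length fusion and 1.94% for delFG1. The list medians were 0.20 for full-length fusion minus empty vector and -0.20 for delFG2 minus full-length fusion, where 24 of 24 were below 0 and 0 passed; Rrs1 (-0.24) had the smallest p there. Of all probe sets 47.7% were above 0 for delFG2 minus full-length fusion. With the array number 16 of 24 were lower and 0 higher (4.75% and 6.43% of all), with a median of -0.26. Of 23 cell cycle genes 0 passed between groups in either fit, among them the proliferation marker gene Mki67 (-0.20 for full-length fusion minus empty vector), Aurka (0.15) and Cdc6 (0.08), with list medians of 0.04 and -0.01 in the same 2 comparisons, and 6 were lower with the array number. No test was run between these lists and the members.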

How the data were processed

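The members and gene lists were chosen with earlier results of these data known. Extraction used the RNeasy kit and labelling the GeneChip WT kit, per the labels. The authors deposited linear intensity values of 28853 probe sets on 8 arrays; background correction, summarisation and normalisation: not given in the sources used here. Sorted log2 values of the arrays differed from their mean by at most 0.034 to 0.072, so no further normalisation was applied. Background and detection calls were not analysed here, and precision is limited by having 2 arrays a group.

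The platform annotation lists 23410 of these probe sets; 21789 carry 1 symbol and were tested, 1621 several and 5443 none. All 38 measured members matched the RefSeq gene table (GRCm38.p6) with unchanged symbols. Values were analysed as log2(intensity + 1) with limma 3.58.1 in R 4.3.3 (lmFit, eBayes with an intensity trend, 4 group means in 1 fit, 4 residual and 4.62 prior degrees of freedom; 3 and 7.78 with the replicate block). The numbers were taken as pairing the arrays because they recur in every group and from the correlations given, which come from these same data. The labels do not state a pairing. P-values are two-sided. The script was tested on simulated data. Named are Nup98, Rae1, Xpo1, the 3 members with the smallest p in each comparison, and all that passed with or without the block; others are summarised, or named after their values were seen. Promoters and motifs were chosen after the values were seen.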

Additional observations from a re-analysis of the deposited data

How the results depend on the processing

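No member was called between groups by limma without the replicate block under any setting run: centring each array on its median, quantile normalisation, a pseudocount of 16, no intensity trend, a mean log2 of at least 6, the mean of a gene's probe sets, only the 2 groups compared, or leaving out 1 array. The replicate block called 2 members for the full-length fusion and 2 for delFG1 against the empty vector, and 0 in the other 4 comparisons. With the block and a second change, chosen after seeing the data, the counts for full-length fusion and delFG1 were 0 and 2 with centring, 5 and 3 with quantile normalisation, 2 and 3 without the trend, 2 and 2 with a pseudocount of 16 and 4 and 3 with a mean log2 of at least 6, all higher. The share of all probe sets called was not counted under these settings or when arrays were left out. Whether a changed count is particular to the members therefore cannot be told. With the block, leaving out 1 array gave 0 to 2 members for the full-length fusion, 0 to 4 for delFG1 and 0 to 2 for delFG2 against the empty vector, and 0 to 2 by the F test, the highest of each without the empty vector array numbered 2 (for the full-length fusion also without the one numbered 1). Of these, 1 of 2, 1 of 4 and 2 of 2 were lower without the array numbered 2. Leaving out 1 array without the block, the median member difference from the empty vector ran from 0.005 to 0.243 for the full-length fusion, -0.004 to 0.258 for delFG1 and -0.071 to 0.139 for delFG2, and from -0.205 to -0.177 between the array numbers, where 7 to 20 members were called (16 without the trend). Leaving out an array of a compared group also left the array numbers unbalanced between the groups. Small differences changed sign. Nup98 ran from -0.036 to 0.231 for full-length fusion minus empty vector, -0.111 to 0.007 for delFG1 minus full-length fusion, -0.088 to 0.178 and, with the block, -0.043 to 0.134 for delFG1 minus empty vector, -0.112 to 0.154 (-0.067 to 0.11, with -0.02 without the delFG2 array numbered 2) for delFG2 minus empty vector and -0.064 to 0.016 (-0.066 to 0.017, with 0.012 without the delFG1 array numbered 2) for delFG2 minus delFG1. Xpo1 ran from -0.037 to 0.121 (-0.021 to 0.105) for delFG1 and -0.084 to 0.074 (-0.068 to 0.058, with 0.027 without the delFG2 array numbered 1) for delFG2 minus empty vector, where quantile normalisation gave 0.004 with and without the block. The cause of these changes was not tested.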
